A study of Mus musculus with 6 samples.

Results

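The forkhead transcription factors share a DNA-binding domain and are named Fox, with a letter for the subclass and a number for the member. The genes described here were those whose symbol has this form and whose probe set lists no other gene, without Foxa1, Foxa2 and Foxa3. This gave 34 genes, read on 79 probe sets, of 18193 genes with a symbol of their own and 45037 probe sets tested. A gene was represented by its brightest probe set over all 6 arrays. RNA came from 344SQ cells, a mass population of lung adenocarcinoma cells grown from a subcutaneous tumour of mouse 344, of genotype p53R172H∆g/+ K-rasLA1/+. Both groups shared this labelled genotype, and the p53 and K-ras alleles of the cells themselves were not read here. The control group carried a lentiviral control vector and the other group a lentivirus that expresses miR-200b-200a-429, the cluster of the microRNAs miR-200b, miR-200a and miR-429. Both were pools of GFP-positive cells kept in puromycin and serum, not single clones, and each group had 3 arrays with the letters A, B and C.

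Many forkhead proteins bind DNA as monomers, and the family acts as activators or repressors according to the member and its partners. FoxO proteins are kept in the cytoplasm when Akt phosphorylates them, and FoxM1 drives the genes of mitosis. FoxC, FoxF, FoxD and FoxQ members are best known from mesenchyme, organ development and the change of epithelial cells to a mesenchymal state, whereas FoxP members act in lung epithelium and FoxJ1 builds motile cilia. The miR-200 family holds cells in an epithelial state, above all by lowering Zeb1 and Zeb2, and Foxf2 is a known target of the family in lung cancer.

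The 3 main arms of the expressed cluster are shown because their seeds, the bases that pair with a target RNA, fall into separate groups. Bases 2 to 8 are in capitals. The sequences and positions are from RefSeq on GRCm38.p6, all on the minus strand of chromosome 4.
miR-200b-3p (chr4:156055685-156055706): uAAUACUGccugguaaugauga
miR-429-3p (chr4:156053916-156053937): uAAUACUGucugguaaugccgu
miR-200a-3p (chr4:156054911-156054932): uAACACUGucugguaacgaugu
The seeds of miR-200b-3p and miR-429-3p are identical, and that of miR-200a-3p differs from them by U4C, counted from the 5′ end of the microRNA. The seeds were not matched to forkhead transcripts, whose sequences were not used here. The arrays do not read mature microRNAs, so the level of the expressed cluster was not measured.

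Values are log2 signals after quantile normalization, and differences are taken as the miR-200 mean minus the control mean. Each has the standard error (SE) of a limma fit on the 6 arrays. A change was called at a Benjamini-Hochberg adjusted p under 0.05 over all 45037 probe sets. The highest value among 3 bacterial trp control probe sets, at 5.28, served as a background gauge. The labels do not say whether the cultures were separate transductions, so the p-values speak only to how far these cultures vary, which may be technical, and the number of arrays limits the precision. In bulk RNA, fewer cells with a transcript and less transcript per cell cannot be told apart. All 7 epithelial markers were above the gauge in at least 1 group, with a summed linear signal of 46488 to 49507 in control and 46219 to 48969 in miR-200 cultures. That sum hides the claudins of tight junctions. Cldn4 rose from 3.52, under the gauge, to 9.24, at least 15.6-fold (adjusted p 0.0217), and Cldn7 rose from 5.71 to 9.95 (adjusted p 0.0162); without any 1 array other than miR-200 A both claudin calls were lost, with adjusted p-values of 0.0581 to 0.112. Of 5 lung lineage markers, 3 were above the gauge in at least 1 group. Sftpb, which encodes surfactant protein B, fell by 6.03, Nkx2-1 stood at 7.07 and 6.88 in the control and miR-200 groups, and Sftpc and Scgb1a1 were under the gauge. Of the markers of other cell types, 3 of 6 for fibroblasts, 2 of 4 for endothelium, 3 of 4 for leukocytes and 3 of 5 for multiciliated cells were above the gauge in at least 1 group. Their summed signals were 354 to 381 in control and 370 to 410 in miR-200 cultures for fibroblasts, and 189 to 217 and 222 to 255 for endothelium. They were 179 to 571 and 156 to 596 for leukocytes, and 277 to 386 and 313 to 397 for multiciliated cells. Their part in the results was not tested.

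Foxd1 was the forkhead gene that fell, and no forkhead gene rose past the threshold. Over all genes, 0.945% were called, 0.671% lower and 0.275% higher, against 1 of 34 forkhead genes (2.94%) lower. The groups did not overlap for 7 forkhead genes (20.6%) in the lower direction, Foxc1, Foxd1, Foxf2, Foxn1, Foxo1, Foxp3 and Foxs1, beside 12.1% of all genes. In the higher direction they did not overlap for Foxk1 alone (2.94%), beside 11.4% of all genes. At an unadjusted p under 0.05, 5 forkhead genes were lower and 0 higher, where 8.47% of all genes were lower and 6.35% higher. Foxd1 and Foxf2 differed by -1 or less (5.88%, beside 4.95% of all genes), and Foxj1, under the gauge, was the 1 member at 1 or more (2.59% of all genes). The median difference was -0.12 over the 34 genes and 0.0014 over all genes, and 20 forkhead genes (58.8%) lay below 0, beside 49.5% of all genes. Over all 79 forkhead probe sets the median was 0.022, with 42 above 0 and 36 below, against a median of 0.027 over all probe sets. There a gene with several probe sets counts several times. With the mean of each gene's probe sets, the median over the forkhead genes was -0.17. Both groups were under the gauge for 6 forkhead genes (17.6%), against 24.7% of all genes.

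**Figure D1:**
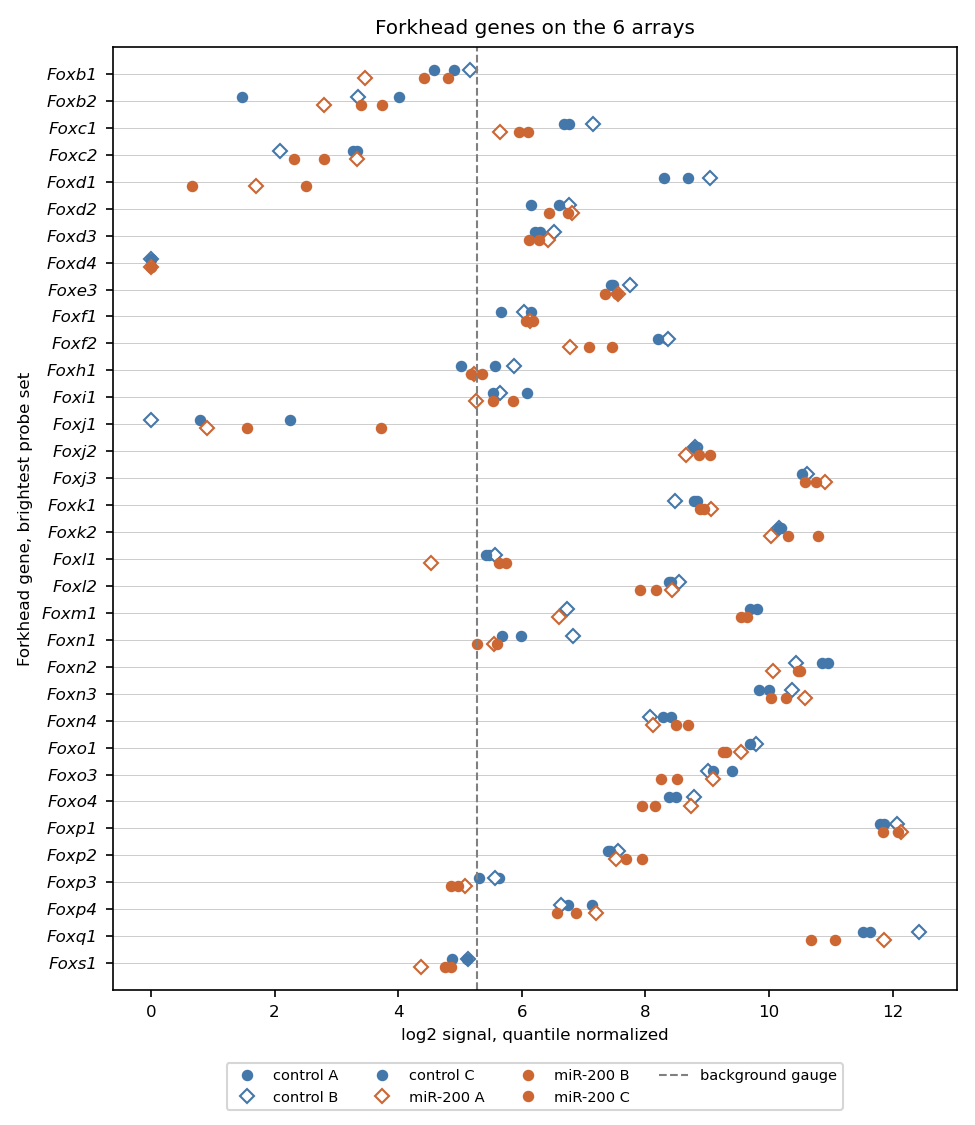
Log2 signal of each of the 34 forkhead genes on each of the 6 arrays, with control in blue, miR-200 in orange, control B and miR-200 A (which stand apart within their groups) as open diamonds, and the background gauge at 5.28 as a dashed line. The groups lie far apart for Foxd1 and close together or overlapping for most other genes.

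Foxd1 marks the stromal progenitors of the kidney and part of the forebrain and retina during development. Its signal was 8.31, 9.04 and 8.69 in control A, B and C, and 1.70, 0.67 and 2.51 in miR-200 A, B and C. All control arrays were well above the gauge and all miR-200 arrays were under it. The mean went from 8.68 ± 0.37 (SD, n = 3) to 1.63 ± 0.93 (SD, n = 3), a difference of -7.05 ± 0.50 (SE), with an adjusted p of 0.00985 in limma. Since the miR-200 level is only bounded by the gauge, Foxd1 was at least 10.6-fold lower. The result rests on the only probe set of the gene. The call was lost on leaving out any 1 control array, with an adjusted p of 0.0689 without control A, 0.0530 without control B and 0.0677 without control C. It was also lost without both control B and miR-200 A (difference -6.91, adjusted p 0.0945). The other FoxD members did not pass the test. Foxd2, a developmental regulator of kidney and cranial mesenchyme, differed by 0.16, and its second probe set by -0.46. Foxd3, which maintains neural crest and pluripotent cells, differed by -0.074, and Foxd4 was listed at 0 on all arrays.

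**Figure D2:**
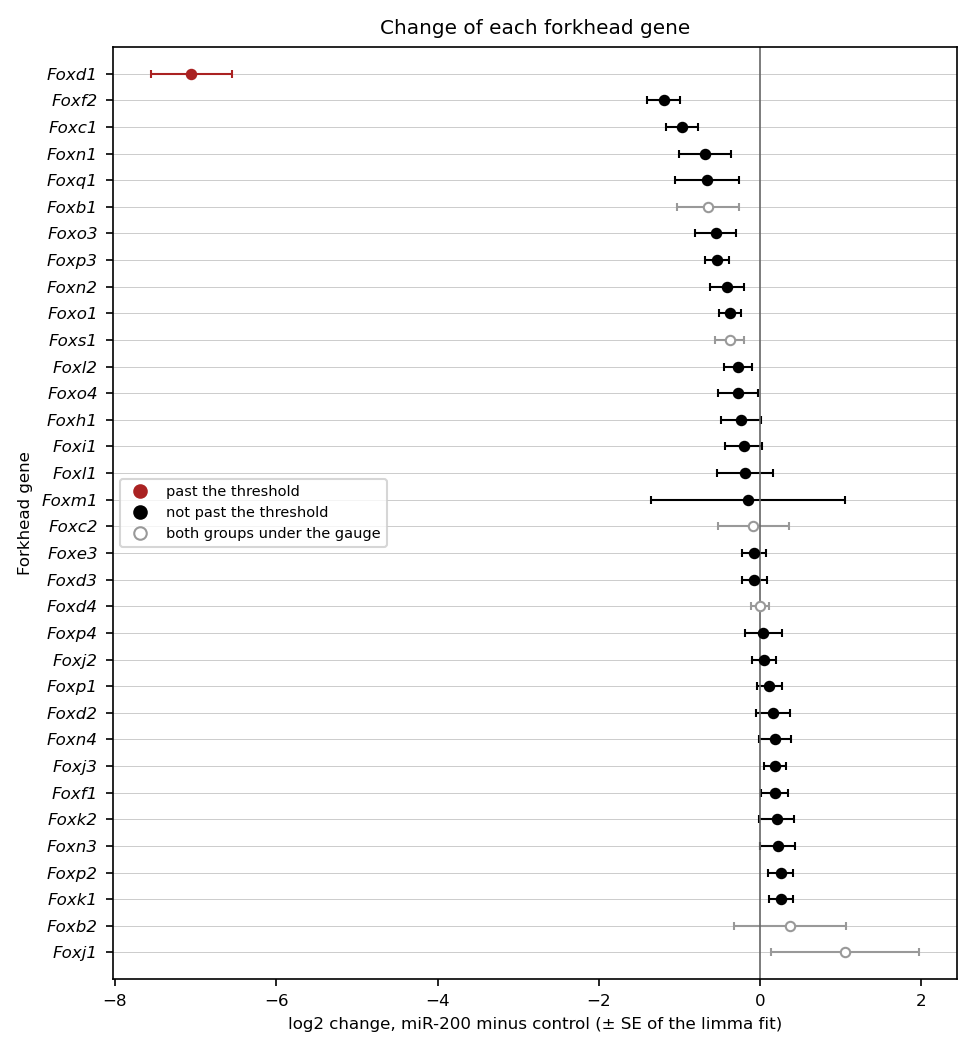
Difference in log2 signal (miR-200 minus control) for each forkhead gene, with bars of 1 SE from the limma fit. Foxd1, in red at -7.05, is the member past the threshold, Foxf2 and Foxc1 follow at -1.20 and -0.97, and grey open circles are the 6 genes under the gauge in both groups.

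Foxq1, Foxf2 and Foxc1 are neighbours on mouse chromosome 13. RefSeq has no protein-coding gene between Foxq1 and Foxf2 or between Foxf2 and Foxc1. Foxf2, a regulator of mesenchyme in the gut, palate and brain vessels, gave 8.36, 8.36 and 8.20 in control A, B and C. It gave 6.79, 7.08 and 7.46 in miR-200 A, B and C, all below the lowest control. The difference was -1.20 ± 0.20 (SE), or 2.29-fold, with an adjusted p of 0.0891 in limma, short of the threshold. The second probe set of Foxf2 was under the gauge in both groups.

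Foxc1, which acts in mesenchyme of the eye, skull and vessels, gave 6.68, 7.15 and 6.77 in the controls and 5.65, 5.96 and 6.09 in the miR-200 cultures. The groups did not overlap, and the difference was -0.97 ± 0.20 (SE), or 1.95-fold, with an adjusted p of 0.128. Its second probe set lay near the gauge and differed by -0.28 (adjusted p 0.608). Foxf2 and Foxc1 passed the threshold, with an adjusted p of 0.0291 and 0.0492, when the dimmest 40% of probe sets were left out of the test. Foxf2 also passed it with a variance trend (0.0266) and with array weights (0.0391).

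Foxq1, associated with the mesenchymal state of carcinoma cells and with hair formation, was bright in all cultures. Its probe set read 11.63, 12.42 and 11.52 in control A, B and C, and 11.87, 11.06 and 10.67 in miR-200 A, B and C. The groups overlapped, since miR-200 A exceeded control A and C. The difference was -0.66 ± 0.40 (SE) with an adjusted p of 0.529, and -0.37 on the second probe set.

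Foxf1, Foxc2 and Foxl1 form a similar cluster on chromosome 8, with no protein-coding gene between Foxc2 and Foxl1 and 1 between Foxf1 and Foxc2. Foxf1, which responds to Hedgehog ligands in lung mesenchyme, had means of 5.95 and 6.13 in the control and miR-200 groups and differed by 0.18 ± 0.17 (SE, adjusted p 0.683). Foxc2, a regulator of lymphatic vessels and of mesenchymal carcinoma cells, was under the gauge in both groups. Foxl1, a marker of gut mesenchyme beneath the epithelium, differed by -0.19 with miR-200 A below the other arrays at 4.52.

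The promoters of Foxd1, Foxf2 and Foxc1, the members with the lowest differences, are shown so that the gene that fell can be set beside the adjacent pair. Each is the 250 bases before the RefSeq start on the plus strand of GRCm38.p6, and capitals mark TATAA.
Foxd1 (chr13:98353995-98354244): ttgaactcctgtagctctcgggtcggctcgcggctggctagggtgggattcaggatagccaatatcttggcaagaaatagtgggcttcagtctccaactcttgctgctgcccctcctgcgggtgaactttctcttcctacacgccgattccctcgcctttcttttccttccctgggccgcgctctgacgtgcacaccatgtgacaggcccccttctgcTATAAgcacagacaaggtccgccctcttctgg
Foxf2 (chr13:31625566-31625815): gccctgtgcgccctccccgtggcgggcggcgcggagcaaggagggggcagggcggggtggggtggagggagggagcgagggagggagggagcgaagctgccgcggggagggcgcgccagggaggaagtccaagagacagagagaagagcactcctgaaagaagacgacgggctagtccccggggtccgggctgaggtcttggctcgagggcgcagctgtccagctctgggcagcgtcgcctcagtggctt
Foxc1 (chr13:31806396-31806645): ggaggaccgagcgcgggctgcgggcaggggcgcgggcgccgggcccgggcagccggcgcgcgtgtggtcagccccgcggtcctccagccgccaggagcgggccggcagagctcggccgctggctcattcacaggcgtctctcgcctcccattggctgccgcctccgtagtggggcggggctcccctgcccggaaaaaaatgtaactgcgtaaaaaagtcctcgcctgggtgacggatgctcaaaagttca
The G and C content was 57.2% for Foxd1, 71.6% for Foxf2 and 70.8% for Foxc1, against a median of 52.4% over all promoters. TATAA, a motif looked for after the Foxd1 promoter had been seen, lies 32 bases before the Foxd1 start. Searched on both strands, it was present in 22.8% of 32851 promoters and in 5 of the 21 forkhead genes with a promoter in the table, Foxd1, Foxe3, Foxi1, Foxo3 and Foxp3. CACCTG, an E-box of the kind Zeb proteins bind, was in 17.2% of all promoters and in Foxi1, Foxp1 and Foxp4. GTAAACA, the core forkhead motif, was in 3.17% of all promoters and in none of the 21. The shares are over promoters, whereas a forkhead gene was counted if any of its promoters held the motif. A match is a description of the letters in this window.

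Foxm1, the activator of mitotic genes in dividing cells, varied more between arrays of a group than between groups. It gave 9.69, 6.74 and 9.81 in control A, B and C, and 6.60, 9.65 and 9.54 in miR-200 A, B and C. Control B and miR-200 A were low, and the other 4 arrays lay between 9.54 and 9.81. The difference was -0.15 ± 1.20 (SE, adjusted p 0.975), and -0.16 without these 2 arrays (adjusted p 0.506). The other 2 Foxm1 probe sets above the gauge showed the same low arrays, at 7.61 and 7.59 on one and 7.38 and 7.34 on the other, against at least 8.39 elsewhere.

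All 17 measured FoxM1 mitotic targets, of 18 listed, were also lower on control B and miR-200 A than on any other array. The same held for 2763 of all 18193 genes. The median of the targets was 10.47, 7.48 and 10.58 in control A, B and C, and 7.25, 10.84 and 10.96 in miR-200 A, B and C. Birc5, which encodes survivin, gave 12.00, 7.21 and 11.96, then 7.10, 11.98 and 11.84. Between groups, none of the targets passed the threshold, by limma, and none had an unadjusted p under 0.05. The median difference of the list was 0.0066, and it lay at -0.87 without control B and at 1.16 without miR-200 A. The smallest p-values were those of Cdk1, the kinase that starts mitosis (0.47 ± 0.76, adjusted p 0.829), and Cdc25b, the phosphatase that activates it (-0.31 ± 0.73, adjusted p 0.893).

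**Figure D3:**
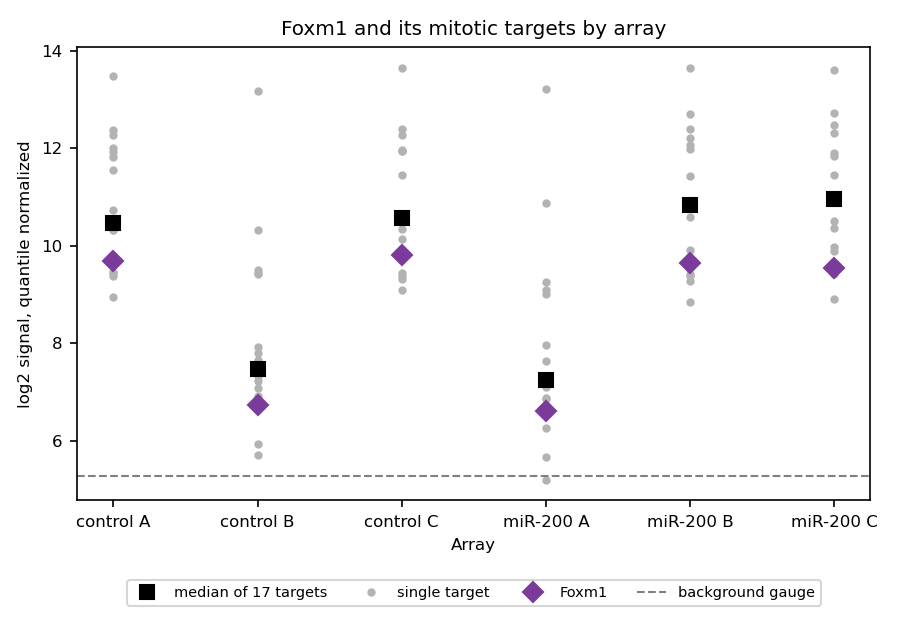
Log2 signal of Foxm1 (purple diamonds) and of 17 FoxM1 mitotic targets (grey points, with their median as a black square) on each array. Control B and miR-200 A lie low for Foxm1 (6.74 and 6.60) and for the target median (7.48 and 7.25), and the dashed line is the background gauge.

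These arrays also deviated together over the probe sets left without the dimmest 40%. The correlation between their deviations from their group means was 0.71, given as a description over probe sets of the same arrays. Control B and miR-200 A lay on the same side of the other 4 arrays for 11 forkhead genes (32.4%), beside 29.3% of all genes. Foxd2, Foxd3, Foxe3, Foxl2, Foxn3, Foxo4 and Foxq1 were higher there, and Foxk2, Foxm1, Foxn2 and Foxn4 were lower. The leukocyte marker Cd68 was high on the same arrays, at 8.87 and 8.98 against 5.73 to 6.81 on the others, and its part in these values was not tested. The other measured leukocyte markers, Ptprc, Cd3e and Itgam, did not lie on the same side of the other arrays there.

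The FoxO members, the targets of the PI3K-Akt pathway, all lay below 0 without passing the test. Foxo1 gave 9.76, 9.79 and 9.70 in the controls and 9.55, 9.31 and 9.26 in the miR-200 cultures. These groups did not overlap, but the difference of -0.38 ± 0.14 (SE) had an adjusted p of 0.312. The other Foxo1 probe sets above the gauge differed by 0.24 and -0.29, in opposite directions. Foxo3 gave 9.40, 9.02 and 9.10 in the controls and 9.09, 8.51 and 8.26 with miR-200, a difference of -0.55 ± 0.26 (SE, adjusted p 0.411). Without control B and miR-200 A it was -0.87. The other Foxo3 probe sets differed by -0.69 and 0.022. Foxo4 differed by -0.27 ± 0.25 (SE, adjusted p 0.681), and by 0.11 on its second probe set.

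None of 26 FoxO target genes passed the threshold in limma, with 2 higher and 2 lower at an unadjusted p under 0.05, beside 6.35% and 8.47% of all genes, and a median difference of -0.048. The list includes Foxo1 itself. The smallest p-values were those of Bcl2l11, which encodes the pro-apoptotic protein Bim (0.63 ± 0.20, adjusted p 0.253), and Klf2, a quiescence factor of T cells and endothelium (0.78 ± 0.25, adjusted p 0.263). All 5 Bcl2l11 probe sets lay above 0, between 0.44 and 0.63. Of 22 measured kinases, cyclins and other regulators of FoxO and FoxM1 in a list of 24, 1 was called lower and none higher, with 3 higher and 2 lower at an unadjusted p under 0.05 (6.35% and 8.47% of all genes) and a median of 0.078. Cdk6, a kinase of early cell cycle entry that phosphorylates FoxM1, fell by 0.97 ± 0.12 (adjusted p 0.0451), from 12.58 to 11.61. It fell by 1.01 on another probe set (adjusted p 0.0419) and differed by -0.48 on the third (adjusted p 0.216). Sgk3, an Akt-related kinase named after its values were seen, differed by 0.39 on its brightest probe set (adjusted p 0.239). It rose by 1.74 on a dimmer one (adjusted p 0.0442) and differed by 0.65 on the third. That call was lost on leaving out any 1 array (adjusted p 0.0731 to 0.193). On the brightest probe sets, no gene of that list was called when any 1 array was left out, and Cdk6 then had adjusted p-values of 0.0657 to 0.191.

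FoxP members act in lung epithelium, where Foxp1, Foxp2 and Foxp4 repress genes of other airway cell types. Foxp1 was bright, at 11.86, 12.07 and 11.79 in the controls and 12.13, 11.85 and 12.08 with miR-200, and differed by 0.12 ± 0.15 (SE, adjusted p 0.781). All 8 Foxp1 probe sets lay above 0, between 0.0062 and 1.12. The largest difference came from a dimmer probe set that read 6.01, 5.88 and 5.68 in the controls and 7.45, 6.54 and 6.95 with miR-200. Its groups did not overlap, but its adjusted p was 0.158. Where on the Foxp1 transcript each probe set lies was not used here.

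Foxp2 differed by 0.26 ± 0.16 (SE, adjusted p 0.530), and its 6 probe sets ranged from -0.77 (adjusted p 0.102, under the gauge with miR-200) to 0.30. Foxp4 differed by 0.041 ± 0.23 (SE, adjusted p 0.962). Foxp3, the factor of regulatory T cells, lay near the gauge, at 5.64, 5.57 and 5.31 in the controls and 5.09, 4.85 and 4.97 with miR-200. The groups did not overlap, and the difference of -0.53 ± 0.15 (SE) had an adjusted p of 0.225. Among the measured leukocyte markers, Cd3e had means of 4.84, under the gauge, and 5.34 in the control and miR-200 groups. It differed by 0.50 (adjusted p 0.596 in limma). Itgam, under the gauge in both groups, differed by 0.94, Ptprc by -0.10 and Cd68 by -0.49. Their part in the Foxp3 values was not tested.

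**Figure D4:**
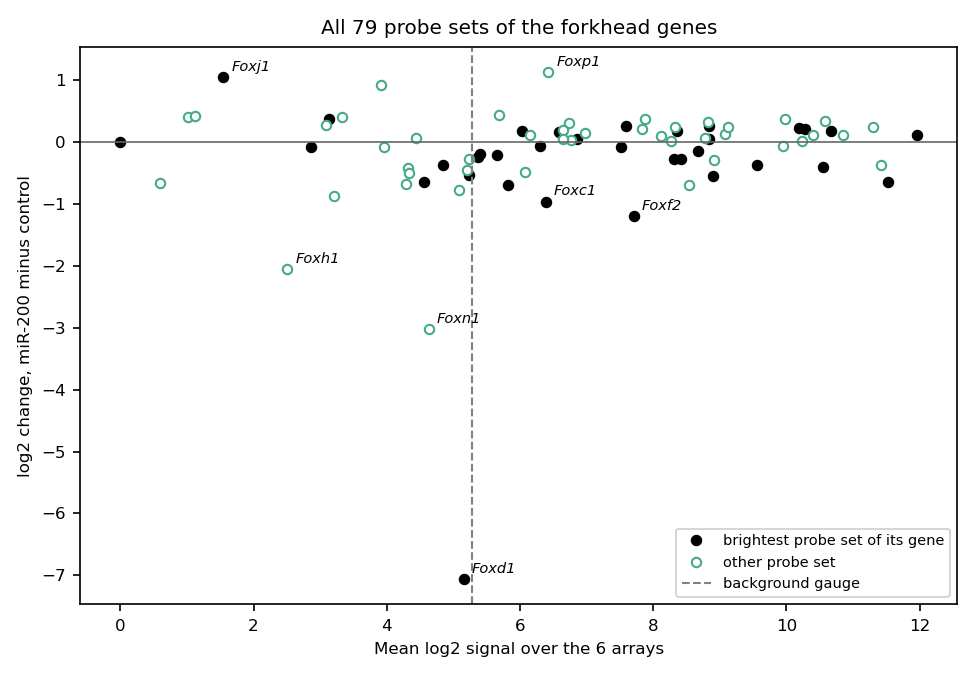
Difference in log2 signal against mean log2 signal for all 79 probe sets of the forkhead genes, with filled points for the brightest probe set of a gene and open points for the others. Most lie within 1 of 0, and only the Foxd1 probe set passed the threshold, while the labelled Foxp1, Foxn1 and Foxh1 points are dimmer probe sets of their genes.

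The FoxK members, which repress autophagy genes in fed cells, lay slightly above 0. Foxk1 gave 8.84, 8.49 and 8.79 in the controls and 9.07, 8.88 and 8.96 with miR-200, without overlap (0.26 ± 0.15, adjusted p 0.508). Foxk2 differed by 0.20 ± 0.22 (SE, adjusted p 0.726), and all 5 of its probe sets lay between 0.065 and 0.36.

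Among the FoxN members, Foxn1, the thymus epithelial factor, had the lowest difference, at -0.69 ± 0.32 (SE, adjusted p 0.416). It gave 5.68, 6.83 and 5.99 in the controls and 5.55, 5.28 and 5.60 with miR-200, with control B the highest. Its dimmer probe set, in the same order of arrays, read 5.53, 7.54 and 5.36, then 5.10, 1.87 and 2.39, with the miR-200 mean under the gauge, so that it was at least 1.82-fold lower (adjusted p 0.291). Foxn2 differed by -0.41 (adjusted p 0.456). Foxn3, a repressor with a role in cell cycle checkpoints, differed by 0.22 ± 0.22 (SE, adjusted p 0.708), with 3 of 4 probe sets above 0. Foxn4, which acts in retinal and spinal progenitors, differed by 0.18 (adjusted p 0.739).

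The broadly expressed FoxJ members Foxj2 and Foxj3 differed by 0.046 and 0.18. Foxj1, the ciliogenesis factor, was under the gauge in both groups, at 2.25, 0 and 0.80 in the controls and 0.91, 3.72 and 1.56 with miR-200. None of 22 measured FoxJ1 cilium targets, of 24 listed, passed the threshold in limma, with 1 higher and 2 lower at an unadjusted p under 0.05, beside 6.35% and 8.47% of all genes. The median difference was -0.074, and 10 of the 22 were under the gauge in both groups. The smallest p-values were those of Ccno (adjusted p 0.174) and Spag6l (adjusted p 0.226), both under the gauge.

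The remaining forkhead genes are tissue-specific developmental factors. Foxl2, the ovarian factor, had means of 8.45 and 8.17 (difference -0.28), and Foxe3, the lens factor, differed by -0.078. Foxi1, the ionocyte factor, differed by -0.21. Foxh1, a partner of Smad proteins in nodal signalling, lay near the gauge and differed by -0.24. Foxb1, Foxb2 and Foxs1 were under the gauge in both groups.

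Of the 22 listed targets and partners of FoxC, FoxF and FoxQ1 in mesenchyme, 1 was called lower and none higher, by limma, while 6 were lower and 2 higher at an unadjusted p under 0.05. Of all genes, 0.671% were called lower, and 8.47% were lower and 6.35% higher at that p. The median difference was -0.042. Among the 6 lower genes were Zeb1 (-1.08, adjusted p 0.255) and Zeb2 (-0.85, adjusted p 0.195), which the miR-200 family is known to lower. Another Zeb1 probe set above the gauge differed by 0.072. The other Zeb2 probe sets, all above the gauge, differed by -0.68, -1.04, 0.18 and 0.31. Twist1, also among the 6, was under the gauge in both groups. Cdh2, which encodes N-cadherin, fell by 3.90 ± 0.28 (SE, adjusted p 0.00985), from 10.17 to 6.27, and its second probe set fell by 4.22. The Cdh2 call was lost without control A (adjusted p 0.0643), control C (0.0591), miR-200 B (0.0793) or miR-200 C (0.0743). Itgb3, an integrin chain, differed by -1.45 (adjusted p 0.0966). Bmp4, a ligand that FoxF genes regulate in mesenchyme, gave 10.78, 10.55 and 10.68 in the controls and 9.06, 7.51 and 7.17 with miR-200, a difference of -2.76 ± 0.51 (SE, adjusted p 0.102). Its groups did not overlap, and it was read on 1 probe set. In the other direction, Nrp2, a receptor of semaphorins and VEGF, gave means of 9.91 and 10.58 without overlap (0.67 ± 0.13, adjusted p 0.115). All 4 of its probe sets lay above 0, with adjusted p-values down to 0.0809. Mmp9, a matrix protease, was higher without overlap but under the gauge in both groups (adjusted p 0.171).

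The Hedgehog pathway, which acts upstream of FoxF, FoxC, FoxD and FoxL genes, had 13 of 14 listed genes measured. None passed the threshold in limma, and none had an unadjusted p under 0.05. The median difference was 0.048, and the smallest p-values were those of the coreceptor Boc (0.48 ± 0.22, adjusted p 0.40) and the transcription factor Gli3 (0.23 ± 0.14, adjusted p 0.511). Of 15 listed partners of FoxP, FoxK and FoxN, 14 were measured and none passed the threshold in limma, with none at an unadjusted p under 0.05 and a median of 0.088. Nfatc2, which binds DNA with Foxp3, differed by 0.53 ± 0.22 (adjusted p 0.371) but lay below 0 on 4 of its other 5 probe sets. The corepressor Ctbp1 differed by 0.23 ± 0.20 (adjusted p 0.667).

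Where a forkhead gene had several probe sets above the gauge, they did not always lie on the same side of 0. Of 15 such genes, 5 had all their probe sets above 0, 3 had all below 0 and 7 were mixed, and 13 genes had 1 probe set in all. Of the 79 probe sets, 60 were above the gauge in a group, and 1 passed the threshold, beside 0.744% of all probe sets. The groups did not overlap for 7 probe sets in the higher and 9 in the lower direction, beside 21.3% of all probe sets in either direction.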

How the data were processed

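Total RNA of 6 cultures was read on Affymetrix mouse arrays, 1 array per culture. The deposited values are log2 signals that the authors computed; the software and scaling behind them are not given in the sources used here. A smaller array design is named in the labels, but the table holds 45101 probe sets. After 64 control probe sets were left out, 45037 were tested. Array medians differed by up to 0.0924 and interquartile ranges by up to 0.174, above a limit of 0.1, so the values were quantile normalized. From 1578 to 1718 values per array were exactly 0, and none was removed. The platform annotation gave 34945 probe sets 1 symbol, 932 several and 9160 none. All 34 forkhead genes matched RefSeq (GRCm38.p6) by gene number; 2 probe sets that list Foxo3 or Foxm1 with other genes were left out.

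A group-means model was fitted with limma 3.58.1 in R 4.3.3, with eBayes and Benjamini-Hochberg adjustment over all probe sets. The procedure was also run on simulated data with independent normal noise. That simulation held no joint deviation of control B and miR-200 A, so it does not show how the procedure performs with it. Full statistics are given for members past the threshold. They are also given for members above the gauge with groups that do not overlap and a difference of at least 1. Whatever their values, 17 members were described, not all with full statistics. Of each gene list, up to 4 members past the threshold, otherwise the 2 with the smallest p, are named. Bmp4, Itgb3, Nrp2, Mmp9, Zeb1, Zeb2, Twist1, Sgk3 and Birc5 were added after their values were seen. The members and lists were chosen with earlier results of these data known. Alternatives were the deposited scale, median centring, averaging all probe sets of each gene, a filter on dim probe sets, a variance trend, array weights, a replicate block, a term for the 2 arrays that stand apart, and leaving out arrays. Without the dimmest 40% of probe sets, same-letter arrays deviated with correlations of -0.58 (A), -0.67 (B) and 0.43 (C). The letters are therefore not shown to pair the samples.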

Additional observations from a re-analysis of the deposited data

How the results depend on the processing

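The count of forkhead genes past the threshold was 1. It was 2 without the dimmest 40% of probe sets, where Foxd1 was not measured, 2 with a variance trend and 2 with array weights. It was 0 without control B and miR-200 A, and 0 to 1 on leaving out 1 array. With the replicate block it was 0, and Foxd1 had an adjusted p of 0.164; the letters are not shown to pair the samples. The 172 called genes became 476 without the dimmest probe sets, 268 with the mean of probe sets, 494 with the variance trend, 606 with array weights, 480 with a term for the 2 arrays, 58 without them, 0 with the replicate block and 16 to 185 on leaving out 1 array. The 335 called probe sets became 923 without the dimmest, 951 with the trend, 1291 with weights, 946 with the term, 103 without both arrays, 0 with the block and 32 to 328 on leaving out 1 array. The 1 called FoxC, FoxF and FoxQ1 target became 4 without the dimmest, 2 with the mean, 3 with the trend, 5 with weights, 0 with the block and 0 to 2 on leaving out 1 array. The FoxJ1 list had 1 call with array weights and 1 with the term. The regulator list had 2 with the mean of probe sets, 0 with the block, 0 without both arrays and 0 on leaving out any 1.

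Foxd1 lay between -7.50 and -6.58 on leaving out 1 array. With the mean of probe sets Foxd2 turned to -0.15, Foxf1 to -0.24, Foxj2 to -0.19, Foxm1 to 0.22 and Foxp2 to -0.20. On the deposited scale Foxd3 turned to 0.00071 and Foxj2 to -0.012, and with centring Foxj2 to -0.083. With array weights Foxl1 turned to 0.093, Foxm1 to 0.012 and Foxp4 to -0.12. Without both arrays Foxl1 was 0.23 and Foxp4 -0.22. On leaving out 1 array the range was -0.37 to 0.90 for Foxb2, -0.49 to 0.16 for Foxc2, -0.017 to 0.29 for Foxd2, -0.15 to 0.013 for Foxd3, -0.13 to 0.021 for Foxe3, -0.052 to 0.15 for Foxj2, -0.0011 to 0.38 for Foxk2, -0.41 to 0.20 for Foxl1, -1.15 to 0.85 for Foxm1 and -0.12 to 0.19 for Foxp4. None of these genes had a call, and the cause was not tested. The median of the FoxM1 targets ranged from -0.87 to 1.16 on leaving out 1 array, and that of the FoxO targets from -0.19 to 0.16. Over all alternatives, 21 of 33 forkhead genes kept their direction.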
